A study of Mus musculus with 49 samples.

Results

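The 5 genes of neuronal intermediate filaments, Nefl, Nefm, Nefh, Ina and Prph, were taken by symbol from the neocortical count table, where they are 5 of 45252 genes. All 5 passed the filter on low counts, as did 18220 genes in all. RNA came from about 30 mg of neocortex of 49 mice, with 1 library per mouse. The rNLS8 mice are bigenic: a transactivator under the human NEFH promoter drives human TDP-43 lacking its nuclear localization signal (hTDP-43ΔNLS) once doxycycline is withdrawn. The controls were monogenic littermates on the same mixed C57BL/6J and C3H/HeJ background. In all 4 groups immunization or mock treatment started at 8 weeks of age, doxycycline was withdrawn at 25.5 weeks, and tissue was taken 3 weeks later. The groups were ctrl-PBS (17 monogenic mice given PBS), TDP-PBS (10 rNLS8 mice given PBS), TDP-10+12 (10 rNLS8 mice given the OVA-coupled TDP-43 peptides 10 and 12, from the glycine-rich domain) and TDP-15 (12 rNLS8 mice given OVA-coupled peptide 15, which carries phosphorylated serines). Vaccinated mice received 40 µg of OVA-peptide conjugate in total at each of 5 immunizations before and 1 after the withdrawal of doxycycline. The driver of the transgene is thus the human promoter of one of the genes described here.

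Neurofilaments are the main intermediate filaments of large myelinated axons and set axon calibre. Nefl encodes the light subunit on which the polymer depends, Nefm and Nefh encode the medium and heavy subunits with long, heavily phosphorylated tails, and Ina encodes alpha-internexin, which joins them in filaments of central neurons and appears early in neuronal development. Prph encodes peripherin, an intermediate filament protein best known from peripheral and motor neurons. Neurofilament light protein released from axons is used widely as a fluid marker of axonal damage, and TDP-43, an RNA-binding protein, is known to bind NEFL mRNA.

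The 5 genes lie at 4 places in the mouse genome (RefSeq annotation, GRCm38.p6). Nefl (chr14:68083863-68089095) and Nefm (chr14:68119545-68125004) are neighbours, whereas Nefh (chr11:4938754-4948064), Ina (chr19:47014681-47025327) and Prph (chr15:99053579-99058978) lie alone. They share a central rod domain, and the coding bases at its end are a conserved part of the family. These 60 bases are shown for 3 of the genes because they bear on whether reads can tell the genes apart. They are exonic coding sequence on the strand of the gene, read 5′ to 3′ from the GENCODE transcripts of GRCm38, with capitals where a base differs from that of Nefl at the same place:
Nefl (chr14:68086058-68086505, plus strand): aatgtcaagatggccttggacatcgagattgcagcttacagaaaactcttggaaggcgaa
Nefh (chr11:4941397-4943891, minus strand): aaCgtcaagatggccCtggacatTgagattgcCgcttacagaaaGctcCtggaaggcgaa
Ina (chr19:47021917-47023353, plus strand): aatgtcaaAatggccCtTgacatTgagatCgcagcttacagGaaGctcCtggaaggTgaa
In these genes the stretch crosses an exon junction, so that the coordinates span an intron. Nefh differed from Nefl at 6 of the 60 bases and Ina at 9. Over the whole transcripts the longest exact run shared by any pair of the 5 genes was 35 bases (Nefm and Prph), and for Nefl the longest was 17 bases (with Nefm). Reads were 100 bases long, so that no exact run was as long as a read.

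Per length of transcript, Ina had the highest level in the monogenic neocortex and Prph the lowest. The unit is CPM (read counts brought to a common library size with TMM factors) per kb of the longest annotated transcript with a RefSeq match. In ctrl-PBS mice Ina reached 108 ± 10.4 CPM per kb (SD, n = 17). Nefl followed at 74.0 ± 4.73, Nefm at 37.8 ± 5.81, Nefh at 21.6 ± 3.71 and Prph at 0.341 ± 0.203 CPM per kb. The ranges of neighbours in this order did not overlap in ctrl-PBS. In the rNLS8 groups the order of the means was the same, but the ranges of Nefl and Nefm overlapped. In 1 TDP-10+12 mouse Nefm lay above Nefl, and the other 31 rNLS8 mice kept Nefl above Nefm. The order of the other neighbours held in all 49 mice.

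Nefl, the light subunit, was about halved in the rNLS8 neocortex, Nefm and Nefh were lower by smaller amounts, and Ina was higher. Prph was near the limit of detection and was not called in any comparison. The 3 neurofilament subunits were called lower and Ina higher in each of the 3 rNLS8 groups against ctrl-PBS. Calls rest on edgeR's quasi-likelihood test fitted to all 49 mice, with a Benjamini-Hochberg adjusted p-value under 0.05 over all 18220 genes. A large share of all genes also passed: in TDP-PBS 21.6% of genes were called lower and 21.9% higher, in TDP-10+12 20% lower and 20.8% higher, and in TDP-15 23.2% lower and 23.6% higher. These 3 comparisons share the ctrl-PBS mice and are not independent of each other.

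**Figure D1:**
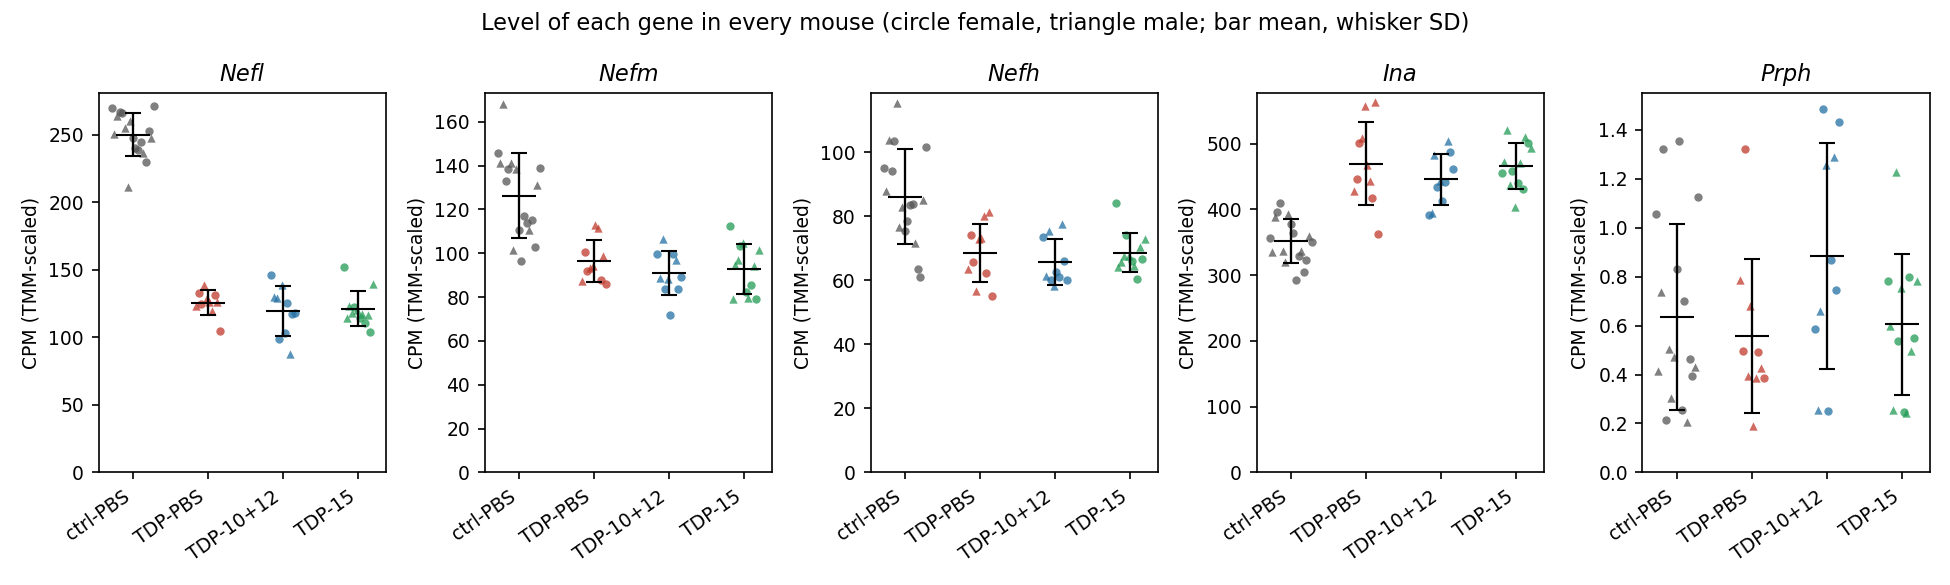
Level of Nefl, Nefm, Nefh, Ina and Prph in every mouse, in CPM on the vertical axis from 0, with the 4 groups on the horizontal axis; each symbol is 1 mouse (circle female, triangle male), the bar is the mean and the whisker the SD. All 32 rNLS8 mice lie below all 17 ctrl-PBS mice for Nefl, whereas the groups overlap for the other 4 genes.

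In ctrl-PBS mice Nefl ranged from 211 to 271.4 CPM with a median of 250.4. In TDP-PBS the lowest, median and highest mouse had 104.7, 126.3 and 138.5 CPM. The corresponding values were 87.59, 121.6 and 146.5 CPM in TDP-10+12 and 104, 117.7 and 151.8 CPM in TDP-15. Each of the 32 rNLS8 mice was thus below each of the 17 ctrl-PBS mice, a separation in this direction that 1.64% of all genes tested showed. Nefl averaged 250.1 ± 16 CPM over the 17 ctrl-PBS mice and 125.7 ± 9.14 CPM over the 10 TDP-PBS mice (± SD). For TDP-PBS this was a log2 fold change of -0.99 (SE 0.06, edgeR adjusted p = 1.81e-19), a level that fell by 49.7% with a 95% confidence interval of the log2 value from -1.11 to -0.87. It was -1.07 in TDP-10+12 (SE 0.06, edgeR adjusted p = 1.5e-20) and -1.05 in TDP-15 (SE 0.06, edgeR adjusted p = 1.98e-21). Among the 18220 genes, 150 had a lower log2 fold change than Nefl in TDP-PBS and 26 had a smaller p-value. In bulk tissue, fewer cells that express a gene and less RNA per cell cannot be told apart.

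Nefm, the medium subunit, ranged from 96.42 to 168.1 CPM in ctrl-PBS (median 131.3) and from 85.91 to 113 CPM in TDP-PBS (median 93.72). Of the 10 TDP-PBS mice, 6 lay below every ctrl-PBS mouse and the other 4 within their range. The spread in TDP-10+12 was 71.94 to 106.4 CPM (median 89.15) and in TDP-15 79.18 to 112.5 CPM (median 94.31). Both immunized groups also reached into the lower part of the ctrl-PBS range. Relative to ctrl-PBS, its log2 fold change was -0.39 in TDP-PBS (SE 0.07, edgeR adjusted p = 1.48e-05). It was -0.47 in TDP-10+12 (edgeR adjusted p = 4.06e-07) and -0.44 in TDP-15 (edgeR adjusted p = 3.17e-07).

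Nefh, the heavy subunit, ranged from 61.04 to 115.4 CPM in ctrl-PBS (median 83.95) and from 55.19 to 81.32 CPM in TDP-PBS (median 69.37). It lay between 58.39 and 77.59 CPM in TDP-10+12 (median 61.97) and between 60.37 and 84.21 CPM in TDP-15 (median 67.21). The groups overlapped more than for Nefm, with 2 of 10 TDP-PBS mice below every ctrl-PBS mouse. The log2 fold change was -0.33 in TDP-PBS (SE 0.08, edgeR adjusted p = 0.000348), -0.39 in TDP-10+12 (edgeR adjusted p = 3.31e-05) and -0.33 in TDP-15 (edgeR adjusted p = 0.000165).

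Ina, which encodes alpha-internexin, moved the other way. Its lowest, median and highest levels were 292.7, 350.1 and 410.2 CPM in ctrl-PBS and 362.6, 457.4 and 562.8 CPM in TDP-PBS. They were 391.6, 443 and 503.7 CPM in TDP-10+12, and 404.3, 464.5 and 520.5 CPM in TDP-15. All but 1 of the 10 TDP-PBS mice, 8 of 10 TDP-10+12 mice and 11 of 12 TDP-15 mice exceeded the highest ctrl-PBS mouse. The log2 fold change was 0.42 in TDP-PBS (SE 0.06, edgeR adjusted p = 1.55e-08), 0.34 in TDP-10+12 (edgeR adjusted p = 1.4e-06) and 0.41 in TDP-15 (edgeR adjusted p = 6.56e-09).

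Prph was counted 4 to 32 times per library, against a limit of 3 counts (0.143 to 0.169 CPM at these depths). Its medians were 0.4724 CPM in ctrl-PBS, 0.4594 in TDP-PBS, 0.8056 in TDP-10+12 and 0.5731 in TDP-15, and all groups overlapped. The coefficient of variation within a group was 47.6% to 59.7% for Prph, compared with 6.39% to 15.5% for Nefl. Relative to ctrl-PBS, Prph had a log2 fold change of -0.20 in TDP-PBS with a 95% confidence interval from -0.83 to 0.43. A change of the size seen for Nefm in either direction lies within this interval. How much of the spread comes from low counts and how much from differences between mice was not tested. Without the 13 libraries that carried most choroid plexus or olfactory bulb RNA the value was -0.66 (edgeR adjusted p = 0.144). The intervals were -0.12 to 1.07 in TDP-10+12 and -0.65 to 0.52 in TDP-15.

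**Figure D2:**
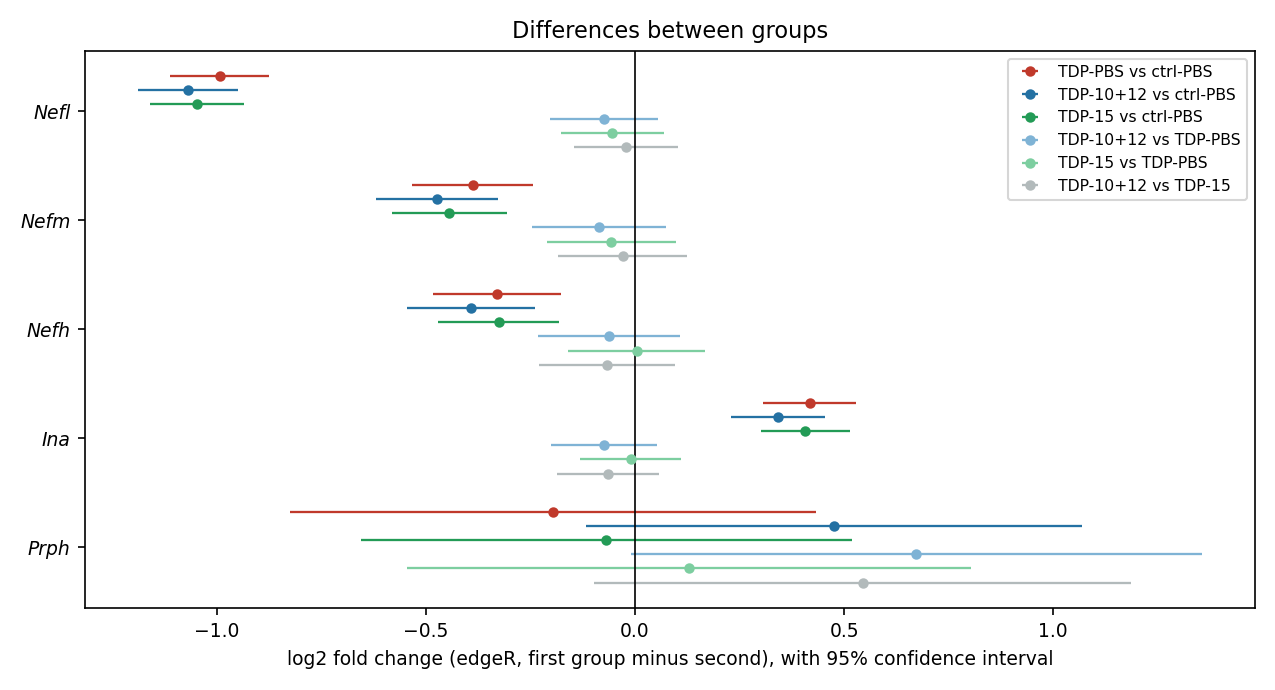
Log2 fold change of each gene (vertical axis) in the 6 comparisons between groups (colours), on the horizontal axis, as the first group minus the second; points are edgeR estimates and lines their 95% confidence intervals. The 3 comparisons with ctrl-PBS lie near -1 for Nefl, between -0.47 and -0.33 for Nefm and Nefh and between 0.34 and 0.42 for Ina, and those between rNLS8 groups have intervals that include 0 for every gene.

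Immunization was compared with mock treatment within the rNLS8 mice. None of the 5 genes was called in these comparisons by edgeR, DESeq2 or limma-voom. In edgeR 0 of the 5 had an unadjusted p-value under 0.05. Over all 18220 genes edgeR called 0 (0%) in TDP-10+12 against TDP-PBS, 0 (0%) in TDP-15 against TDP-PBS and 0 (0%) in TDP-10+12 against TDP-15, while 953, 552 and 1244 genes respectively had unadjusted p-values below 0.05. DESeq2 called 0 genes in each, and limma-voom 2, 0 and 0. For Nefl the log2 difference from TDP-PBS was -0.07 in TDP-10+12 (95% confidence interval -0.20 to 0.05) and -0.05 in TDP-15 (-0.18 to 0.07). For Nefm the intervals were -0.25 to 0.08 in TDP-10+12 and -0.21 to 0.10 in TDP-15, and for Nefh -0.23 to 0.11 and -0.16 to 0.17. For Ina they were -0.20 to 0.05 and -0.13 to 0.11. Differences beyond these bounds lay outside the 95% intervals, and smaller ones could not be told from none. Prph had the widest intervals, with a log2 difference of 0.67 in TDP-10+12 against TDP-PBS (-0.01 to 1.35, edgeR unadjusted p = 0.053) and of 1.08 without the same 13 libraries (edgeR adjusted p = 0.58).

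The counts of 2 genes in the same library give a ratio that does not depend on the scaling between libraries. In ctrl-PBS mice the count of Nefm was 0.503 ± 0.0579 times that of Nefl (SD, n = 17), with a range of 0.402 to 0.637. In TDP-PBS the ratio was 0.77 ± 0.0892 (SD, n = 10), with a range of 0.67 to 0.934, so that each TDP-PBS mouse lay above each ctrl-PBS mouse. The means in TDP-10+12 and TDP-15 were 0.775 ± 0.134 and 0.766 ± 0.0589. On the log2 scale Nefm/Nefl was higher than in ctrl-PBS by 0.62 in TDP-PBS (SE 0.07), 0.62 in TDP-10+12 (SE 0.08) and 0.61 in TDP-15 (SE 0.05). Each had a two-sided permutation p = 2e-05, the smallest that 100000 resamples can give, and p = 5.33e-05 after adjustment over the 24 ratio tests. Nefl was thus lowered more than Nefm within the same libraries. A rise against Nefl is not particular to Nefm. The median log2 fold change over all genes tested was -4e-04 in TDP-PBS, and an unchanged gene rises against Nefl by more than Nefm did. The share of all genes whose ratio to Nefl separates the groups was not counted.

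Nefh relative to Nefl showed the same shift. The ratio of counts was 0.343 ± 0.0481 in ctrl-PBS (range 0.242 to 0.452) and 0.547 ± 0.076 in TDP-PBS (range 0.41 to 0.671). It was 0.564 ± 0.129 in TDP-10+12 and 0.569 ± 0.0339 in TDP-15. The log2 ratio was higher than in ctrl-PBS by 0.67 (SE 0.08), 0.70 (SE 0.11) and 0.74 (SE 0.06), each with an adjusted permutation p = 5.33e-05.

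Ina relative to Nefl changed most among the 3 ratios of well-counted genes. Its count was 1.41 ± 0.104 times that of Nefl in ctrl-PBS (range 1.23 to 1.54) and 3.73 ± 0.41 times in TDP-PBS (range 3.18 to 4.45). The ratio was 3.84 ± 0.857 in TDP-10+12 (range 2.67 to 5.75) and 3.88 ± 0.479 in TDP-15 (range 3.0 to 4.81). Every rNLS8 mouse lay above every ctrl-PBS mouse. With Nefl lower in every rNLS8 mouse and Ina called higher, this separation follows from the levels given above. It is no separate support. The log2 ratio of Ina to Nefl was higher by 1.41 (SE 0.06), 1.42 (SE 0.10) and 1.46 (SE 0.06), each with an adjusted permutation p = 5.33e-05. Prph/Nefl was also higher, by 0.87 (SE 0.31, adjusted permutation p = 0.0224) in TDP-PBS, 1.56 (SE 0.38, adjusted permutation p = 0.0011) in TDP-10+12 and 1.06 (SE 0.30, adjusted permutation p = 0.00397) in TDP-15, with the numerator resting on 4 to 32 counts. The fall of Nefl raises the ratio of any unchanged gene to it. Prph itself was not called (log2 fold change -0.20, edgeR adjusted p = 0.644 in TDP-PBS), so these p-values give no result about Prph. The lowest adjusted permutation p of the 12 ratio tests between rNLS8 groups was 0.185.

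**Figure D3:**
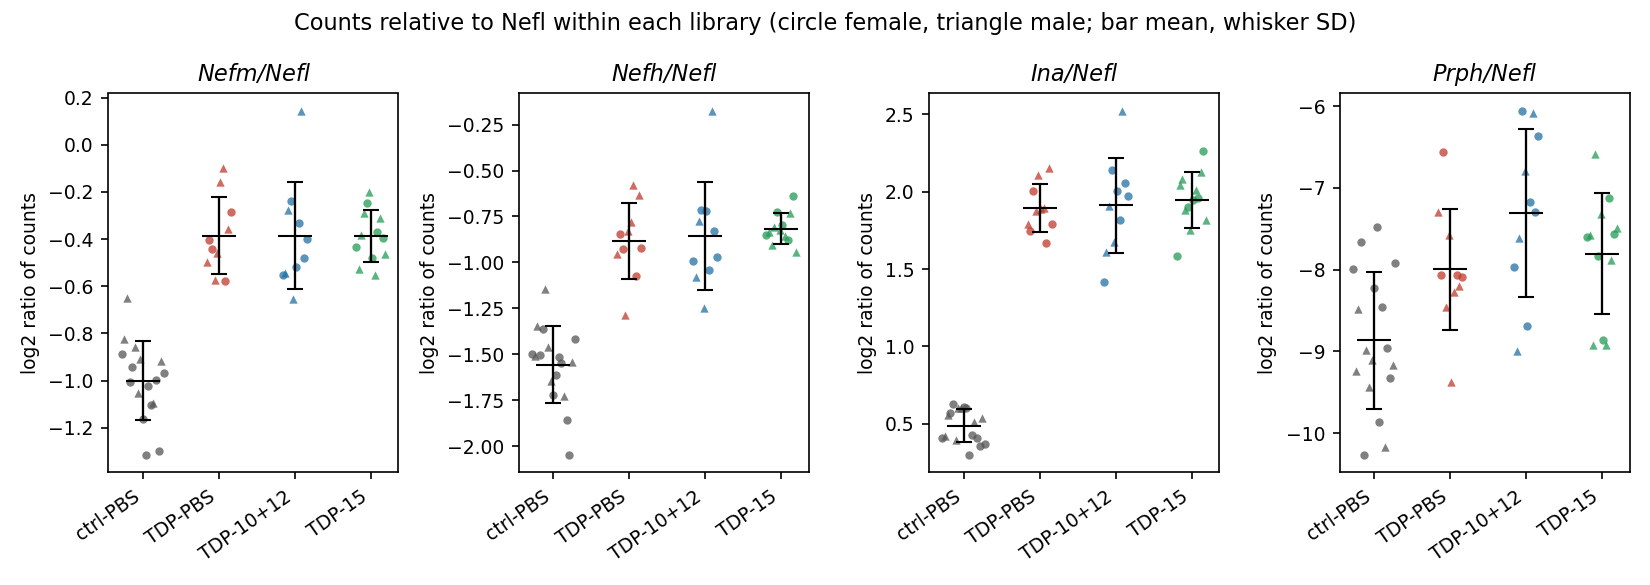
Log2 ratio of the counts of Nefm, Nefh, Ina and Prph to those of Nefl in each library (vertical axis) by group (horizontal axis); each symbol is 1 mouse (circle female, triangle male), the bar is the mean and the whisker the SD, and the axes do not start at 0. For Ina/Nefl the highest ctrl-PBS mouse is at 0.62 and the lowest rNLS8 mouse at 1.42.

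The makeup of the family shifted with these ratios. Nefl supplied 30.6 ± 1.36% of the summed CPM per kb of the 5 genes in ctrl-PBS (SD, n = 17) and 16.4 ± 1.29% in TDP-PBS (SD, n = 10). In the same groups the share of Ina was 44.8 ± 2.18% and 63.2 ± 2.48%, that of Nefm 15.6 ± 1.49% and 12.7 ± 1.38%, and that of Nefh 8.87 ± 1.08% and 7.52 ± 0.785%. TDP-10+12 and TDP-15 had Nefl shares of 16.3 ± 2.6% and 15.9 ± 1.29%. The sum of the 5 genes was 242 ± 20.7 CPM per kb in ctrl-PBS, 228 ± 23.3 in TDP-PBS, 217 ± 13.4 in TDP-10+12 and 225 ± 13.2 in TDP-15, with overlapping ranges. Shares of a sum are tied to each other and were not tested.

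Across mice, Nefm varied together with Nefh and with Nefl in both genotypes, and Nefl varied together with Nefh and with Ina in ctrl-PBS. Correlations of log2 CPM were computed for the 10 pairs of genes in the 17 ctrl-PBS mice and in the 32 rNLS8 mice, the latter after subtraction of the mean of each group, which gave 20 relations adjusted together. The points of a pair share their library and its depth. Nefm and Nefh had Pearson's r = 0.77 (adjusted permutation p = 0.0029) and Spearman's rho = 0.83 (adjusted permutation p = 0.0009) in ctrl-PBS. In rNLS8 mice they had r = 0.67 (adjusted permutation p = 0.0004) and rho = 0.65 (adjusted permutation p = 0.0008). Without the 2 mice farthest from the median of Nefm, r was 0.82 and 0.65.

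Nefl and Nefm had r = 0.72 (adjusted permutation p = 0.00627) and rho = 0.72 (adjusted permutation p = 0.0122) in ctrl-PBS, and r = 0.47 (adjusted permutation p = 0.0305) and rho = 0.52 (adjusted permutation p = 0.0125) in rNLS8 mice. Without the 2 farthest mice r was 0.72 and 0.54. For Nefl and Nefh r was 0.61 in ctrl-PBS (adjusted permutation p = 0.0305, rho = 0.69, adjusted permutation p = 0.0125) and 0.21 in rNLS8 mice (adjusted permutation p = 0.428, rho = 0.19, adjusted permutation p = 0.463). For Nefl and Ina r was 0.64 in ctrl-PBS (adjusted permutation p = 0.0294, rho = 0.62, adjusted permutation p = 0.0323) and 0.01 in rNLS8 mice (adjusted permutation p = 0.97, rho = 0.06, adjusted permutation p = 0.772). Without the 2 farthest mice these were 0.61 and 0.31 for Nefh, and 0.58 and 0.17 for Ina. Differences in r between the genotypes were not tested. The remaining 12 relations, among them all 8 with Prph, had adjusted permutation p-values of 0.146 or more for r.

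**Figure D4:**
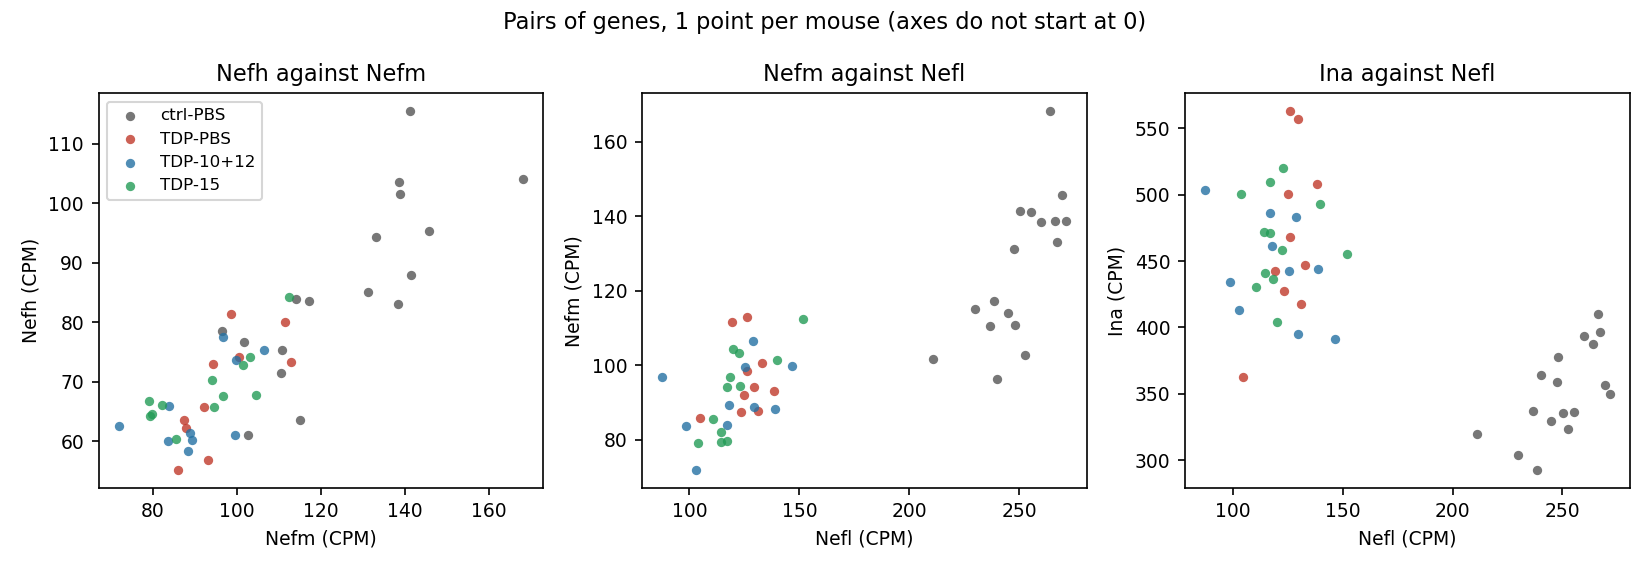
Levels of 3 pairs of genes in CPM (Nefh against Nefm, Nefm against Nefl and Ina against Nefl), with 1 point per mouse coloured by group and axes that do not start at 0. Nefm and Nefh rise together within the groups (r = 0.77 in ctrl-PBS and 0.67 in rNLS8 mice), and rNLS8 mice form a separate cloud at lower Nefl and higher Ina.

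The genes most like each subunit across the 49 mice, after the mean of each group was subtracted, are given as a description over all 18220 genes. For Nefm the most alike gene was Nefh (r = 0.72), followed by Ank1, which encodes an ankyrin (r = 0.62), Epb41l3, Esrra and Dffa. For Nefh it was Nefm, followed by Pvalb, the calcium-binding protein of fast-spiking interneurons (r = 0.68), Syt2 and Vamp1, which act in fast transmitter release (r = 0.64 and 0.61), and Limk1 (r = 0.63). Nefl was most like Smarca2 (r = 0.69), Lamp5, Cadps2, Septin8 and Cbx6, with Nefm in place 179. The r of Smarca2 with Nefl was 0.37 in ctrl-PBS and 0.78 in rNLS8 mice, and that of Cadps2 0.17 and 0.75. Lamp5, Septin8 and Cbx6 had r of 0.64 or more in both. Nefm had r = 0.72 with Nefl in ctrl-PBS and 0.47 in rNLS8 mice, so that its place depends on the mice pooled. Ina was most like Hspbp1 (r = 0.79), Arhgap44, Taf6, Cdk16 and Gsk3a, and the nearest of the other 4 genes described here was Nefh in place 1055.

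The difference between genotypes was compared between the sexes in the 27 PBS-treated mice. The log2 fold change of Nefl was -1.04 in females and -0.95 in males, a difference of 0.08 (SE 0.09, edgeR adjusted p = 0.878). For Ina the values were 0.30 and 0.49, a difference of 0.19 (SE 0.12, edgeR adjusted p = 0.812). The interaction was not called for Nefm, Nefh or Prph either, with edgeR adjusted p-values of 0.942 or more. No gene of 18220 was called by this edgeR test, with 1152 at an unadjusted p-value under 0.05, and no other tool was run for it.

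Genes that handle neurofilaments or form the rest of the neuronal cytoskeleton were read from the same fit, in TDP-PBS against ctrl-PBS. Over all genes 21.6% were called lower and 21.9% higher in TDP-PBS. These shares were 20% and 20.8% in TDP-10+12, and 23.2% and 23.6% in TDP-15. Of 14 other genes of the neuronal cytoskeleton 9 were lower, 3 higher and 2 not called, with a median log2 fold change of -0.23 beside 0.00 over all genes tested. Stmn1, which encodes a microtubule-destabilising stathmin, was lowest at -0.68 (SE 0.08, edgeR adjusted p = 9.15e-11), and Ank3, the ankyrin of the axon initial segment, was highest at 0.23 (SE 0.05, edgeR adjusted p = 0.00017). In TDP-10+12 and in TDP-15 the counts were again 9 lower and 3 higher. Among 9 kinases and phosphatase subunits that act on neurofilament tails 5 were lower and 2 higher, with a median of -0.13, compared with 4 lower and 1 higher in TDP-10+12 and 5 lower and 0 higher in TDP-15. Cdk5r1, the p35 activator of the kinase Cdk5, was lowest at -0.43 (SE 0.05, edgeR adjusted p = 1.81e-11) and Mapk3 was highest at 0.20 (SE 0.08, edgeR adjusted p = 0.0281). The call of Mapk3 was lost without TDP-PBS mouse 82 (log2 fold change 0.18, edgeR adjusted p = 0.057) and without TDP-PBS mouse 91 (log2 fold change 0.18, edgeR adjusted p = 0.0511), and the number of kinase genes called higher was below 2 in 14 of 27 refits that left out 1 mouse of either group.

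Of 12 genes for neurofilament transport and linkage, 4 were lower and 5 higher in TDP-PBS, with a median of 0.04. The counts were 4 lower and 3 higher in TDP-10+12 and 4 lower and 5 higher in TDP-15. These and the counts below stand beside 21.6% of all genes lower and 21.9% higher in TDP-PBS. The kinesin heavy chains diverged, with Kif5c lowest at -0.50 (SE 0.06, edgeR adjusted p = 2.4e-10) and Kif5b highest at 0.64 (SE 0.06, edgeR adjusted p = 1.22e-12). The third heavy chain of the list, Kif5a, was also called higher, at 0.22 (SE 0.06, edgeR adjusted p = 0.000921). Of 8 genes for folding and turnover, 1 was lower and 4 higher, with a median of 0.12, compared with 2 lower and 3 higher in TDP-10+12 and 2 lower and 1 higher in TDP-15. Stub1, a co-chaperone ubiquitin ligase, was at -0.33 (SE 0.04, edgeR adjusted p = 7.07e-09) and Hspb1, a small heat shock protein, at 0.66 (SE 0.28, edgeR adjusted p = 0.0456). The call of Hspb1 was lost in 16 of 27 such refits, and over all 27 its log2 fold change ranged from 0.54 to 0.77. Without the 13 libraries that carried most choroid plexus or olfactory bulb RNA, the higher calls were 2 for folding and turnover and 0 for kinases.

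Among 6 RNA-binding and other regulators of neurofilament transcripts, 2 were lower and 1 higher in TDP-PBS and in TDP-10+12, and 2 lower and 0 higher in TDP-15. The counts in TDP-PBS were near the share of all genes, of which 43.5% were called in either direction. In TDP-PBS, Elavl4, a neuronal RNA-binding protein, was lowest at -0.60 (SE 0.06, edgeR adjusted p = 6.38e-12) and Elavl3 highest at 0.17 (SE 0.04, edgeR adjusted p = 0.00151). The other gene called lower was mouse Tardbp, which encodes TDP-43, which averaged 145.9 ± 9.27 CPM over the 17 ctrl-PBS mice and 118.3 ± 14 CPM over the 10 TDP-PBS mice (± SD), a log2 fold change of -0.30 (SE 0.05, edgeR adjusted p = 1.54e-06). Whether reads of the human transgene entered the Tardbp count is not given in the sources used here.

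The other intermediate filament genes of brain gave no lower call in TDP-PBS, where 21.6% of all genes were called lower and 21.9% higher. Of 10 genes 5 were higher, led by Gfap, the astrocyte intermediate filament, at 1.64 (SE 0.18, edgeR adjusted p = 9.88e-11), and the lowest value was -0.11 for Synm, which was not called. TDP-10+12 had 5 higher and 1 lower, and TDP-15 had 5 higher and 0 lower. Of 9 nerve injury genes 8 were tested, and 3 were lower and 1 higher, near the 43.5% of all genes called in either direction. The one higher was Atf3, a stress-induced transcription factor, from 0.4649 to 3.627 CPM (log2 fold change 2.94, SE 0.23, edgeR adjusted p = 4.23e-15), and the lowest was Npy, a neuropeptide, at -0.68 (SE 0.09, edgeR adjusted p = 2.95e-08). In TDP-10+12 this list had 3 higher and 2 lower, and in TDP-15 it had 1 higher and 3 lower.

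**Figure D5:**
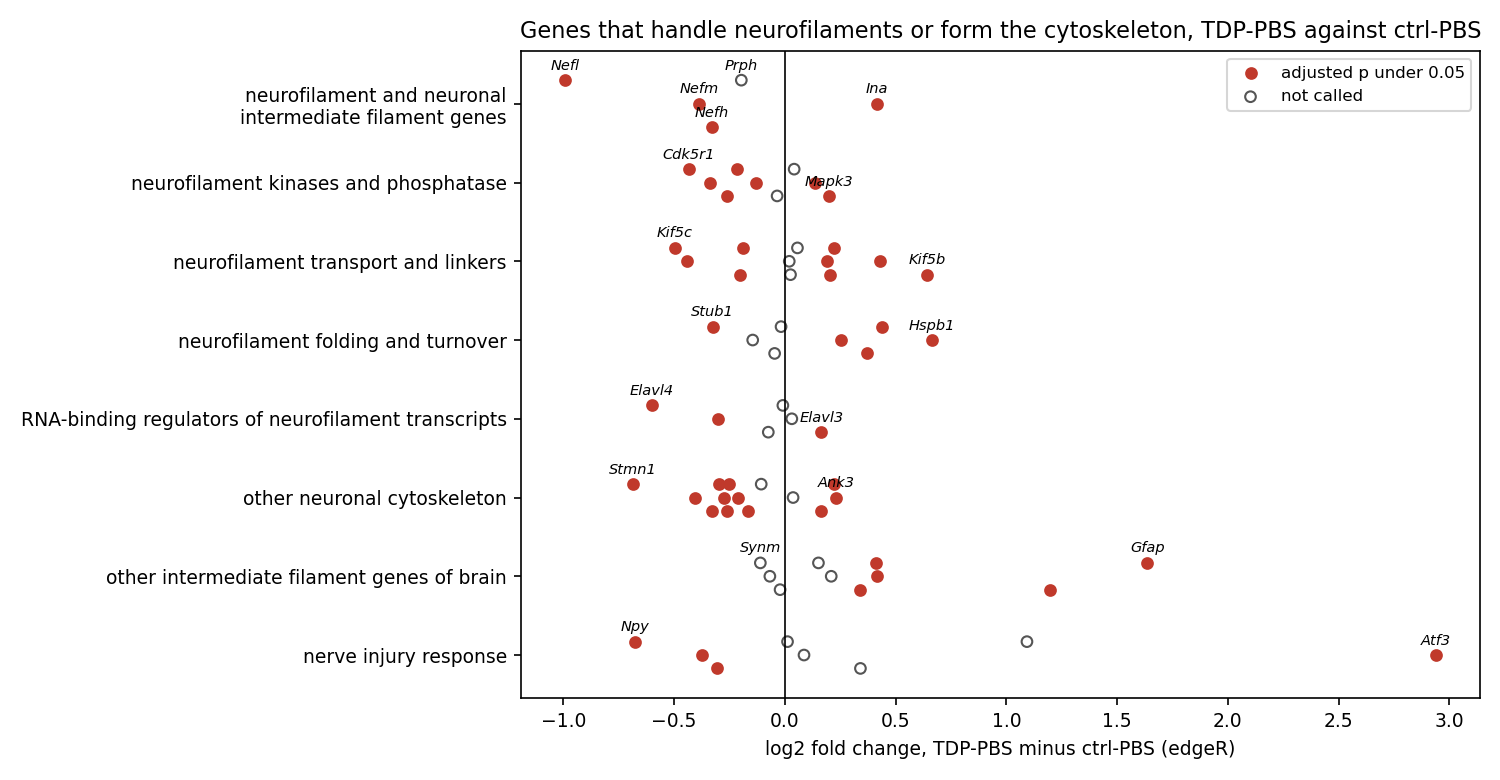
Log2 fold change in TDP-PBS against ctrl-PBS (horizontal axis) for Nefl, Nefm, Nefh, Ina and Prph and for 7 lists of related genes (vertical axis), with 1 point per gene, filled where the adjusted p-value is under 0.05; the 5 genes and the extreme genes of each list are named, and the vertical offset within a list only separates points. Nefl at -0.99 lies below every gene of the lists, whose lowest value is -0.68, and Ina lies at 0.42.

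Markers of neuronal types were read in the same libraries, beside 43.5% of all genes called in either direction in TDP-PBS. Of 7 layer 5 projection neuron markers 6 were lower in TDP-PBS, with a median log2 fold change of -0.49, and their summed level was 451 to 712 CPM in ctrl-PBS and 386 to 470 CPM in TDP-PBS. Of 6 layer 2 to 4 markers 5 were lower (median -0.40, 456 to 640 and 370 to 483 CPM), and of 6 layer 6 markers 1 was lower and 5 were not called (median -0.12, 122 to 301 and 157 to 287 CPM). Of 8 interneuron markers 4 were lower and 1 higher, with Pvalb lowest at -0.50 and Lhx6 highest at 0.22. Of 8 pan-neuronal markers 2 were lower and 1 higher (8600 to 10900 and 7830 to 9290 CPM), from Snap25 at -0.68 to Thy1 at 0.38, with a median of -0.01. No defining marker of these 5 lists was at 0 in any group. Their part in the differences of the 5 genes was not tested.

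Several facts of the series touch these values. Total counts ranged from 17775738 to 21033608 per library, the labelled sex fitted in 49 of 49 mice, and 0 pairs of libraries were identical. Summed choroid plexus markers ranged from 11.7 to 1700 CPM and olfactory bulb markers from 8.08 to 197 CPM, with 13 libraries above 100 CPM in either. Olfactory bulb markers differed between 2 of the groups: 4 of 5 were lower in TDP-PBS than in ctrl-PBS (median log2 fold change -2.41), beside 21.6% of all genes. In TDP-10+12 and TDP-15, which are also rNLS8 mice, 0 of 5 were called against ctrl-PBS (medians -0.72 and -0.61). Over all genes 40.8% and 46.9% were called in either direction in these 2 groups. Libraries above 100 CPM of olfactory bulb markers numbered 2 in ctrl-PBS, 0 in TDP-PBS, 0 in TDP-10+12 and 1 in TDP-15. The sum of these markers reached 197 CPM in ctrl-PBS and 24.1 CPM in TDP-PBS, with medians of 14.5 and 14.4 CPM. Choroid plexus markers had 0 of 5 called in TDP-PBS, 3 higher in TDP-10+12 and 1 higher in TDP-15. Over all genes 21.9%, 20.8% and 23.6% were called higher in these groups, so that the count in TDP-15 is near the share of all genes. Without the 13 libraries above 100 CPM each of the 5 genes kept its direction and call in the comparisons with ctrl-PBS. Of 8 microglial markers 6 were higher in TDP-PBS, beside 21.9% of all genes. A230070E04Rik, a noncoding gene that shares 1253 bases with Nefm, was counted 117 to 262 times per library and had a log2 fold change of -0.32 (SE 0.07, edgeR adjusted p = 0.000269), and without the strand setting its reads and those of Nefm cannot be told apart there. Gm35321 and Ap1b1 overlap Nefh and Nt5c2 overlaps Ina, with log2 fold changes of -0.10, -0.04 and -0.11.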

How the data were processed

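The authors sequenced neocortical RNA as 100-base paired-end reads and used the genome build GRCm38.p6. The values they deposited are unnormalized counts, with 1 column per mouse. The submitters' processing notes name HISAT, HISAT2, Bowtie, Bowtie2 and RSEM without roles. The annotation and the strand setting are not given in the sources used here. Groups, sexes and mouse numbers were taken from the labels. The labels name each sample as a separate animal.

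Here all 49 mice entered 1 quasi-likelihood fit with group as the only term (glmQLFit, glmQLFTest; edgeR 4.0.16 under R 4.3.3). Genes were kept by filterByExpr with a minimum count of 10 and a minimum total of 15, and TMM factors set the scaling. Adjusted p-values are Benjamini-Hochberg over all genes tested, with a threshold of 0.05. Standard errors were derived from the F statistic, and log2 CPM used a prior count of 2. The study's methods name DESeq2, which was run as an alternative (DESeq2 1.42.0), as was limma-voom (limma 3.58.1). Log2 ratios of counts were compared by two-sided permutation tests with 100000 resamples, and correlations by permuting mice within their group (Python 3.11.15, scipy 1.17.1). Alternatives also included other scaling, filters, sex as a covariate, fits of only 2 groups and each mouse left out. The fit and the permutation test were tested on simulated data. Figures were drawn with matplotlib 3.10.9.

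Total counts per library gave a limit of 3 counts, or 0.143 to 0.169 CPM, which covers counting error only. Transcript lengths and the rod-end sequences came from GENCODE transcripts that carry a RefSeq accession, and the rod end was located by translating them and searching for the helix termination motif of intermediate filaments. Promoter windows were held for Ina and Prph. Protein sequences were not analysed here, and some items, among them some sequences and several marker lists, are not reported here.

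The 5 genes, the gene lists and the tests were chosen with earlier results of these data known, so that none is independent support. Genes named beside them are, in each list described, the tested gene with the highest and the one with the lowest log2 fold change in TDP-PBS, Tardbp, the 5 genes most correlated with each of the 5, and any gene on which a result turns, such as those overlapping the 5.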

Additional observations from a re-analysis of the deposited data

Results flagged for a closer look

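Values were compared within the groups of 10 mice, TDP-PBS and TDP-10+12, for the CPM of the 5 genes and the 4 log2 ratios to Nefl, which gave 18 sets of 10 values. In 3 of them the most extreme mouse was separated from the others by a gap over 0.466 of the whole range, the 95% critical value of Dixon's test, which chance gives in about 1 in 20 sets. The largest such gap was 0.503 of the range.

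In TDP-PBS, mouse 82 had 1.319 CPM of Prph, from 25 counts, with the next mouse at 0.7843 CPM. In TDP-10+12, mouse 301 had a log2 ratio of Nefm to Nefl of 0.1442 and of Nefh to Nefl of -0.1748, the highest of its group in both. The same mouse had the lowest Nefl of all 49 mice (87.59 CPM) and the highest Nefh (77.59 CPM) and Ina (503.7 CPM) of its group. Without it the difference of TDP-10+12 from ctrl-PBS was 0.56 for Nefm/Nefl and 0.63 for Nefh/Nefl on the log2 scale (n = 9, unadjusted permutation p = 2e-05 for both).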

How the results depend on the processing

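Nefl, Nefm and Nefh lower and Ina higher in each rNLS8 group against ctrl-PBS kept their direction and call under all 9 alternatives and with each mouse of the 2 groups compared left out in turn. Across the 9 alternatives the log2 fold change in TDP-PBS was -0.999 to -0.983 for Nefl, -0.42 to -0.36 for Nefm, -0.37 to -0.31 for Nefh and 0.40 to 0.43 for Ina. With 1 mouse left out the corresponding ranges were -1.01 to -0.95, -0.41 to -0.35, -0.36 to -0.29 and 0.38 to 0.47. Prph was not tested under the filter of 10 counts in every mouse and was not called under the other 8 alternatives, although without the 13 libraries its log2 fold change moved to -0.66 in TDP-PBS against ctrl-PBS and to 1.08 in TDP-10+12 and 0.56 in TDP-15 against TDP-PBS. Small differences that were not called changed sign: Prph in TDP-15 against ctrl-PBS was 0.0217 with sex as a covariate, Nefh in TDP-15 against TDP-PBS was -0.0052 under limma-voom, and the genotype by sex interaction of Nefh was -0.0219 over all 49 mice. With 1 mouse left out such values ranged from -0.0481 to 0.022 for Ina, -0.0288 to 0.0343 for Nefh and -0.0077 to 0.3623 for Prph in TDP-15 against TDP-PBS, from -0.2041 to 0.0407 for Prph in TDP-15 against ctrl-PBS, and from -0.0562 to 0.0219 for Nefl and -0.0565 to 0.0046 for Nefm in TDP-10+12 against TDP-15. In females alone Prph/Nefl was no longer called in TDP-PBS (0.92, adjusted permutation p = 0.232) and TDP-15 (0.81, adjusted permutation p = 0.204), with fewer mice in each group. The other 34 ratio values kept their call in females, in males and with a pseudocount of 5. The removal of 13 libraries and that of mouse 301 were chosen after seeing the data. Hspb1 lost its call without a filter, with sex as a covariate and without the 13 libraries, and Mapk3 without the 13 libraries. With the filter of 10 counts in every mouse Atf3 was not tested, which left 0 nerve injury genes higher. Kinases called higher were 1 without a filter or with sex as a covariate, and folding genes called lower were 2 under limma-voom. Between rNLS8 groups at most 2 genes were called under any alternative, and up to 3 with 1 mouse left out. No paired analysis was possible because every mouse is a separate animal with its own number. Prph rests on few counts, 4 to 32 per library, whereas the other 4 genes had at least 1146 counts in every mouse.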

Other observations

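The correlations of Prph with other genes rest on few counts. After the mean of each group was subtracted, the genes most like Prph over 49 mice were Zfp648 (r = 0.60), B9d1 (r = 0.57), 2310033P09Rik (r = 0.55), Ramp1 (r = 0.53) and Qrfpr (r = 0.52), given as a description.

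RefSeq promoter windows of 300 bases (GRCm38.p6) were held for Ina (chr19:47014431-47014730, plus strand) and Prph (chr15:99054924-99055223, plus strand). The Prph window lies inside the annotated span of the gene (chr15:99053579-99058978), so that it belongs to a start within that span. On either strand the Ina window held the GC box GGGCGG in 2 places. The Prph window held it in 1 place together with the TATA box TATAAA, which began 31 bases before the start used for that window. Of 32817 promoter windows of the same length 35.6% held this GC box and 13.6% this TATA box. Neither window held the letters CCAAT, TGACGTCA (CRE), TGACTCA or its complement (AP-1) or GCGTGGGCG (EGR). CCAAT was found in 37.4% of windows, the CRE in 1.79%, the AP-1 motif in 5.2% and the EGR motif in 0.612%.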
